A study of Homo sapiens with 6 samples.

Results

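The nuclear pore complex was followed here through 35 genes out of 23002 in the deposited table of U251 cells, with the gene AAAS as the point of reference. The members were every gene whose symbol is NUP followed by a number, with or without further letters, and AAAS, RAE1, NDC1, POM121, POM121C, TPR, SEC13, SEH1L, AHCTF1, RANBP2, GLE1 and NUTF2. The fall of AAAS against the other pore genes was what drew attention to the group, so the values of AAAS are given as a description, with no test. U251 is an established human glioblastoma cell line. A control line carried a lentivirus with a non-targeting short hairpin RNA (sh-NC, 3 samples) and a second line carried a lentivirus with a short hairpin RNA against TRAF2 (sh-TRAF2, 3 samples), TRAF2 being an adaptor protein and ubiquitin ligase of tumor necrosis factor receptors. Both were stable lines, the labels name no added cytokine or drug for either, and whether each line was 1 clone or a pool is not given in the sources used here. RNA-seq of total RNA gave 33999558 to 36823562 reads on genes per sample, and the values are FPKM, reads scaled by transcript length and by sequencing depth.

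The nuclear pore complex is the channel through which proteins and RNA pass the nuclear envelope. It is built of nucleoporins: transmembrane proteins that anchor it, an inner ring and outer rings that form the scaffold, phenylalanine-glycine (FG) repeat proteins that fill the channel, filaments on the cytoplasmic side and a basket on the nuclear side. AAAS encodes ALADIN, a WD-repeat nucleoporin that is held at the pore by the transmembrane protein NDC1 and is mutated in Allgrove syndrome, a disorder of the adrenal cortex, the lacrimal glands and the oesophagus.

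The hairpin target sequences are shown first because stretches of them were searched for in the pore genes. The study lists the following pair of hairpins against TRAF2, and which of them the sequenced line carried is not given in the sources used here. The capitals mark 7 bases of the first target and 12 of the second that are shown again in pore transcripts further on.
sh-TRAF2#1: cccttgcagATTCCACgccat
sh-TRAF2#2: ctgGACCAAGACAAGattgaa
On GRCh38 both targets lie in the coding sequence of TRAF2 on the plus strand, the first at chr9:136916579-136916599 and the second at chr9:136920480-136920500.

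TRAF2 itself stood at 15.1, 18.4 and 15.3 FPKM in the sh-NC samples and at 3.26, 3.22 and 3.33 FPKM in the sh-TRAF2 samples, 79.9% lower on the means (limma adjusted p = 1.16e-06). The glioma markers VIM (1208 to 1606 FPKM), CD44 (177 to 192) and SOX2 (24.1 to 28.7) were high in every sample, NES (4.82 to 11.8) and GFAP (0.334 to 1.62) were lower, and OLIG2 and S100B did not pass 0.113 FPKM. The 9 markers of immune, endothelial, epithelial, oligodendrocyte and neuronal cells did not pass 0.0818 FPKM in any sample. Correlations of log2 values over genes were 0.993 to 0.995 within a group and 0.979 to 0.985 between groups, so no library stood apart from its group.

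AAAS was lower in sh-TRAF2 cells than in sh-NC cells. AAAS (NCBI Gene 8086, GRCh38 chr12:53307456-53324864, minus strand) stood at 15.8, 15.1 and 13.9 FPKM in the sh-NC samples and at 7.75, 8.10 and 8.85 FPKM in the sh-TRAF2 samples. These values rest on 958 to 1046 reads per sh-NC sample and 502 to 578 reads per sh-TRAF2 sample. The groups did not overlap: the lowest sh-NC sample was above the highest sh-TRAF2 sample by more than the whole range within either group. The sh-NC mean was 14.9 ± 0.982 FPKM (SD over 3 samples) and the sh-TRAF2 mean 8.23 ± 0.564 FPKM, a level 44.8% lower. On the scale used for all fold changes below, log2(FPKM + 0.1), the difference was -0.85 with a standard error of 0.0688. The standard error describes the spread between samples and is no test, since the fall drew attention to the group. In bulk RNA, fewer cells that hold a transcript and less of it per cell cannot be told apart.

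The fall of AAAS was not shared in size by any other gene of the pore. The other 33 pore genes that passed the minimum of a mean of 0.5 FPKM had log2 fold changes between -0.33 (NUP42) and 0.58 (NUP35) with a median of -0.01. AAAS lay 0.84 below that median on the log2 scale, and the gap between AAAS and NUP42, the next lowest pore gene, was -0.52. Of all 11870 genes tested, 148 (1.25%) had a log2 fold change at or below that of AAAS. This distance is what the choice of AAAS rests on, so no p is attached to it.

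**Figure D1:**
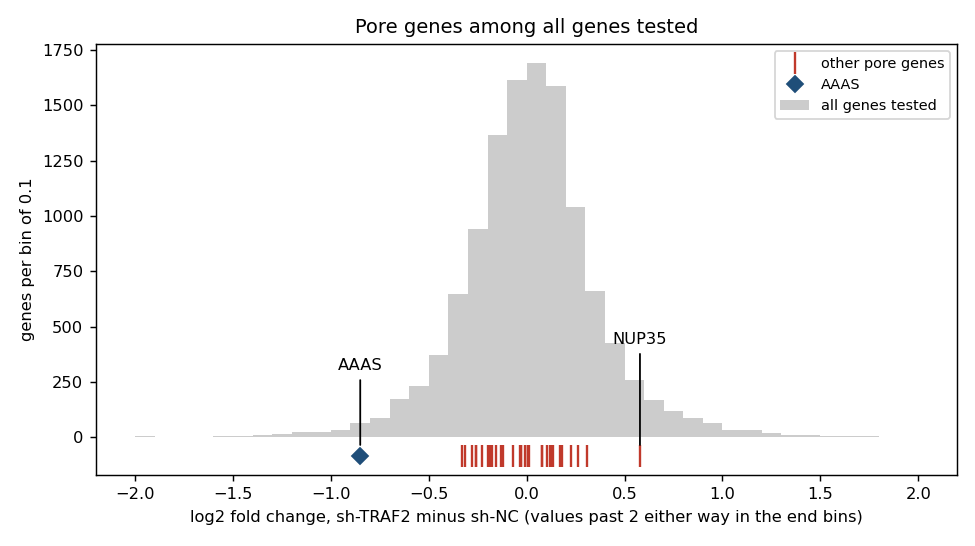
Log2 fold changes (sh-TRAF2 minus sh-NC, horizontal axis) of all 11870 genes tested as grey bars (genes per bin of 0.1), with the 33 other pore genes as red ticks and AAAS as a blue diamond below. AAAS at -0.85 stands apart to the left of the other pore genes, which run from -0.33 to 0.58, with NUP35 alone at the right end.

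Because FPKM is scaled by transcript length, the pore genes can also be ranked by level within a sample. AAAS ranked 20 to 22 of the 35 genes in the sh-NC samples and 30 to 31 in the sh-TRAF2 samples. As a share of the summed FPKM of all pore genes it took 2.07% ± 0.115 in the control line and 1.13% ± 0.0797 in the knockdown line (SD over 3 samples each). The summed FPKM of the pore itself was 719.5 ± 10.1 in the control line and 729.6 ± 4.37 in the knockdown line (SD over 3 samples each), with overlapping ranges, and made up 0.206% and 0.207% of the FPKM of all genes. The most abundant pore transcript in both groups was SEC13 at 84.6 and 95.8 FPKM, and the least abundant with a mean above the minimum was NUP62CL at 0.745 and 0.597 FPKM.

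**Figure D2:**
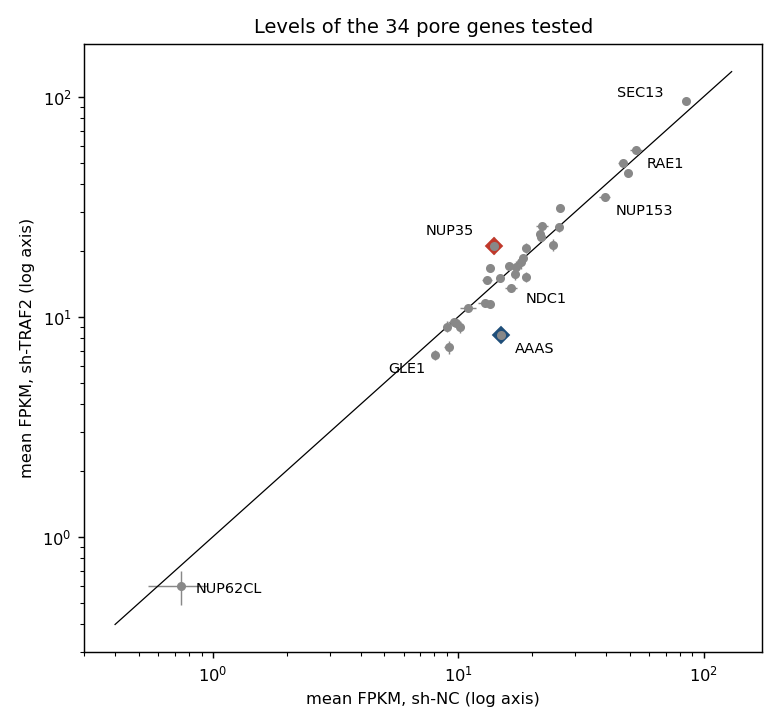
Mean FPKM of the 34 pore genes above the minimum in sh-NC (horizontal, log axis) and sh-TRAF2 (vertical, log axis), with error bars of 1 SD over 3 samples and a line of equal level. AAAS (blue, 14.9 and 8.23 FPKM) lies below the line and NUP35 (red, 14.1 and 21.1 FPKM) above it, while the remaining genes lie close to it.

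Among the other 33 pore genes, 16 (48.5%) passed an adjusted p of 0.05 (limma on all genes, Benjamini-Hochberg), 7 higher and 9 lower in sh-TRAF2. Without sh-NC replicate 1 the lower count was 5. Over all genes tested 44.6% passed, 23.7% higher and 20.9% lower, so the share among the pore genes was near that of the transcriptome. None of the 33 passed a log2 fold change of 1 in either direction, which 1.72% of all genes did together with the adjusted p. The 3 samples of one group lay wholly above or below those of the other for 23 of the 33 (69.7%), 12 higher and 11 lower, against 55.5% of all genes (29.0% higher and 26.5% lower). The median size of the change, regardless of direction, was 0.14 on the log2 scale for the other pore genes and 0.19 for all genes, and 17 of the 33 lay below 0 and 16 above. Standard errors ran from 0.0383 to 0.0687 on that scale, NUP62CL apart, and the members other than NUP210L and NUP62CL had 502 to 10693 reads in a sample.

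**Figure D3:**
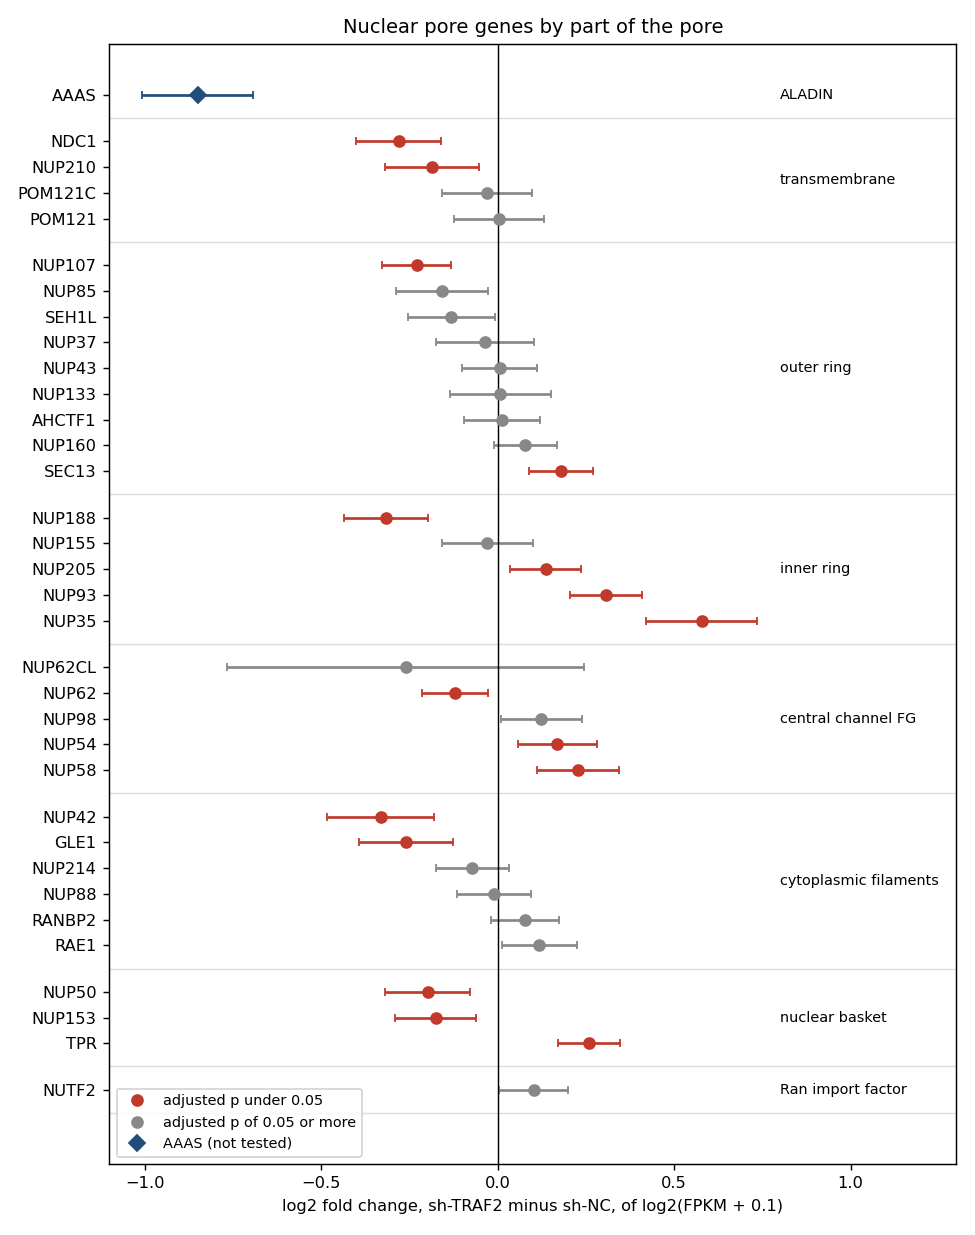
Log2 fold change (sh-TRAF2 minus sh-NC, horizontal axis) of the 34 pore genes above the minimum, grouped by part of the pore, with 95% intervals from limma. Red points passed an adjusted p of 0.05, grey points did not, and AAAS (blue diamond, -0.85) is shown without a test. The interval of AAAS describes the spread between samples only. Genes that rose and genes that fell stand side by side within the outer ring, the inner ring, the channel and the basket.

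Of the 4 transmembrane nucleoporins tested, 2 fell and none rose, beside 20.9% of all genes lower and 23.7% higher. NDC1, the membrane anchor of ALADIN, stood at 17.1, 15.3 and 16.7 FPKM in sh-NC and at 13.7, 13.1 and 13.5 FPKM in sh-TRAF2. The groups did not overlap, and the log2 fold change was -0.28 (limma adjusted p = 0.00327), a smaller fall than that of its partner. The ratio of AAAS to NDC1 FPKM averaged 0.912 ± 0.0791 in the control line and 0.612 ± 0.0455 in the knockdown line (SD over 3 samples each). NUP210, a large glycoprotein of the pore membrane, fell by 0.19 on the log2 scale (limma adjusted p = 0.0301). POM121 (0.00) and its near copy POM121C (-0.03) did not pass the test. Of the 75-base windows of the POM121 coding sequence 35.2% occur unchanged in POM121C transcripts, so reads may be split between the pair. NUP210L, a relative of NUP210, had 0 to 3 reads per sample and was not tested.

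In the outer ring, the Y-shaped complex that forms the cytoplasmic and nuclear faces of the scaffold, 1 of 9 genes rose, 1 fell and 7 did not pass. Over all genes tested 23.7% rose and 20.9% fell. SEC13, a beta-propeller protein shared with COPII vesicle coats, stood at 81.7, 87.1 and 84.9 FPKM in sh-NC and at 93.7, 94.1 and 99.5 FPKM in sh-TRAF2. Every sh-TRAF2 sample was above every sh-NC sample, with a log2 fold change of 0.18 (limma adjusted p = 0.00708). NUP107, a stem protein of the Y, was at 13.6, 13.2 and 13.5 FPKM in sh-NC and at 11.3, 11.6 and 11.4 FPKM in sh-TRAF2. It was lower in every sh-TRAF2 sample and fell by 0.23 on the log2 scale (limma adjusted p = 0.00321). The stem and arm proteins NUP85 (-0.16, limma adjusted p = 0.0506), SEH1L (-0.13), NUP37 (-0.04), NUP43 (0.01), NUP133 (0.01) and NUP160 (0.08) did not pass, nor did AHCTF1 (0.01), which brings the complex to chromatin. The summed FPKM of the 9 genes came to 211.1 ± 1.01 for the control line and 218.5 ± 2.99 for the knockdown line (SD over 3 samples each).

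The inner ring held both the largest rise of the pore and one of its larger falls. NUP35, a dimerizing protein that contacts the pore membrane and links NUP93 to it, stood at 13.4, 14.7 and 14.0 FPKM in sh-NC and at 23.1, 20.7 and 19.5 FPKM in sh-TRAF2. All 3 sh-TRAF2 samples were above all sh-NC samples, and the sh-TRAF2 samples spread more widely (coefficient of variation 8.82%, the highest of the pore genes with a mean above 1 FPKM in that group). The mean went from 14.1 ± 0.664 to 21.1 ± 1.86 (SD, n = 3 each), 50.0% higher, a log2 fold change of 0.58 with a standard error of 0.0687 (limma adjusted p = 0.000313). Of all genes tested 5.17% had a log2 fold change at or above that of NUP35, and its rank by level among the 35 genes moved from 21 to 25 in the sh-NC samples to 10 to 13 in the sh-TRAF2 samples. NUP35 (GRCh38 chr2:183117513-183161680, plus strand), like AAAS, shares no exon with another annotated gene.

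NUP93, the linker that holds the inner ring together, was at 13.2, 13.6 and 13.6 FPKM in sh-NC and at 16.1, 16.9 and 17.0 FPKM in sh-TRAF2, again without overlap (log2 fold change 0.31, limma adjusted p = 0.000833). NUP205, a large scaffold protein bound by NUP93, rose by 0.14 on the log2 scale (limma adjusted p = 0.0364). NUP188, the paralogue of NUP205 that occupies the equivalent place in other NUP93 assemblies, was at 18.8, 19.5 and 18.2 FPKM in sh-NC and at 14.9, 16 and 14.5 FPKM in sh-TRAF2. NUP188 was thus lower in every sh-TRAF2 sample (log2 fold change -0.32, limma adjusted p = 0.0017), the opposite direction to NUP205. The NUP188 call held in all 15 alternative settings and the NUP205 call in 7. NUP155, the last of the 5 inner ring genes, was at -0.03 and did not pass. Summed over the 5, FPKM went from 77.6 ± 1.59 to 86.0 ± 2.50 (SD, n = 3 each).

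**Figure D4:**
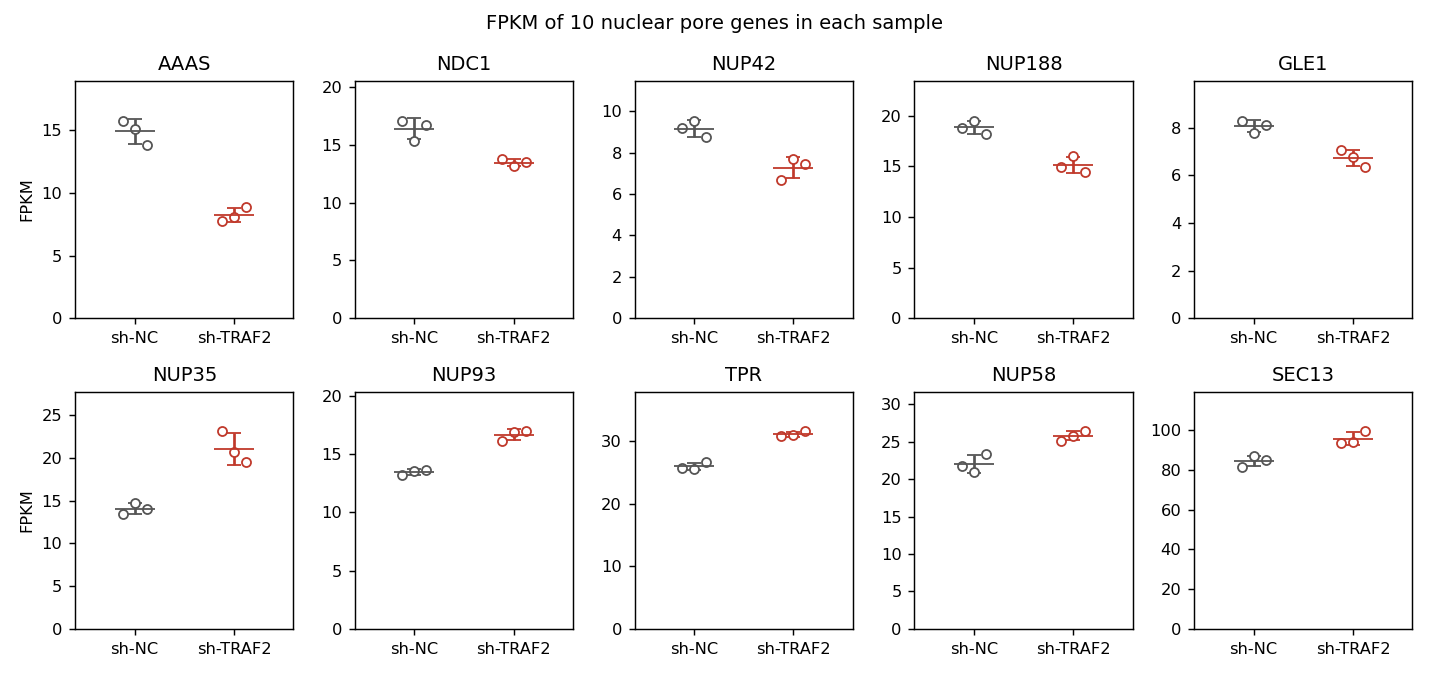
FPKM (vertical axes, each starting at 0) of AAAS, NDC1, NUP42, NUP188 and GLE1 (top) and NUP35, NUP93, TPR, NUP58 and SEC13 (bottom) in the 3 sh-NC samples (grey) and the 3 sh-TRAF2 samples (red). Open points are samples, horizontal marks are means and error bars are 1 SD. In each panel the groups do not overlap, and the gap is widest relative to the level for AAAS and NUP35.

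Of the 5 genes grouped under the central channel, NUP58 and NUP54 rose and their partner NUP62 fell, although the 3 proteins assemble into one channel complex. Among all genes tested, 23.7% rose and 20.9% fell. NUP58 was at 21.8, 20.9 and 23.4 FPKM in sh-NC and at 25.2, 25.8 and 26.4 FPKM in sh-TRAF2. Each sh-TRAF2 sample exceeded each sh-NC sample, with a log2 fold change of 0.23 (limma adjusted p = 0.00705). NUP54 rose by 0.17 (limma adjusted p = 0.0226) and NUP62 fell by 0.12 (limma adjusted p = 0.0421) on the log2 scale. NUP98, an FG protein that also binds RAE1, was at 0.12 and did not pass (limma adjusted p = 0.0745). NUP62CL, a relative of NUP62, had a mean under 1 FPKM in both groups, a log2 fold change of -0.26 and a 95% interval of -0.77 to 0.25, so that its direction was not detectable at this depth.

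On the cytoplasmic filaments 2 of 6 genes passed, beside 44.6% of all genes, and both fell. NUP42, the pore docking site of GLE1, was at 9.19, 9.56 and 8.76 FPKM in sh-NC and at 6.70, 7.69 and 7.44 FPKM in sh-TRAF2. GLE1, which activates the helicase that strips proteins from exported mRNA, was at 8.29, 7.78 and 8.09 FPKM in sh-NC and at 7.04, 6.77 and 6.35 FPKM in sh-TRAF2. Both partners were lower in every sh-TRAF2 sample, NUP42 with a log2 fold change of -0.33 (limma adjusted p = 0.00437) and GLE1 with -0.26 (limma adjusted p = 0.00769). The filament proteins NUP214 (-0.07) and NUP88 (-0.01), the SUMO ligase RANBP2 (0.08) and the mRNA export factor RAE1 (0.12, limma adjusted p = 0.0667) did not pass. RANBP2 has near copies in the genome, the 7 RGPD genes of the table, which hold 24.6% of the 75-base windows of its coding sequence and reached at most 0.571 FPKM in any sample.

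The 3 genes of the nuclear basket all passed the test, in both directions, beside 44.6% of all genes tested. TPR passed in all 15 alternative settings, NUP50 in 13 and NUP153 in 10. TPR, the coiled-coil protein of which the basket is built, was at 25.8, 25.5 and 26.7 FPKM in sh-NC and at 30.8, 31.0 and 31.6 FPKM in sh-TRAF2. It was higher in every sh-TRAF2 sample, with a log2 fold change of 0.26 (limma adjusted p = 0.000954). NUP153, which anchors TPR, fell by 0.17 (limma adjusted p = 0.0220) and NUP50, a cofactor of importin-driven import, fell by 0.20 (limma adjusted p = 0.0156) on the log2 scale. NUTF2, the carrier that returns Ran to the nucleus, was at 0.10 and did not pass (limma adjusted p = 0.0814).

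The 16 members that did not pass, NUP62CL apart, had log2 fold changes from -0.16 to 0.12 and 95% intervals that reached no further than -0.29 and 0.24. A change of the size seen for AAAS or NUP35 therefore lay outside the interval of each of them. Within groups, coefficients of variation of the pore genes had a median of 3.18% in sh-NC and 3.76% in sh-TRAF2. The exons of 20 of the 35 members overlap those of another annotated gene, and for 7 of them (NUP188, NUP43, NUP62, NUP88, NUP98, NUTF2 and TPR) that gene is protein coding; whether the counting used strand is not given in the sources used here.

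Sequence features of the members were then set beside their values. The longest annotated 3′UTR of AAAS is 33 bases, a length that only 23 of 10822 tested genes with an annotated 3′UTR (0.213%) have or fall short of. The other pore genes tested have 330 to 5677 bases with a median of 1652, close to the median of 1656.5 over all tested genes. No stretch of AAAS transcripts longer than 8 bases was identical to either hairpin target. The 7 bases ATTCCAC (bases 10 to 16 of the first target, searched on the sense strand) were taken from earlier work on these data. They occur in the longest 3′UTR of 11.5% of tested genes and of 5 of the 34 pore genes above the minimum (14.7%), shown here with 7 bases on either side.
NDC1, chr1:53766340-53766346, minus strand: tttttatATTCCACtctctgt
NUP50, chr22:45186163-45186169, plus strand: tgttttgATTCCACtgggaga
POM121, chr7:72950790-72950796, plus strand: ctctgctATTCCACcctggtg
RAE1, chr20:57378281-57378287, plus strand: tctctccATTCCACtgcctgt
RANBP2, chr2:108785256-108785262, plus strand: catcaccATTCCACtcggcca
The coordinates are those of the capitals on GRCh38. Of these 5 genes NDC1 and NUP50 fell, and POM121, RAE1 and RANBP2 did not pass the test. AAAS holds these 7 bases neither in its 3′UTR nor in its coding sequence. The overlapping string TTCCACA occurs in the longest 3′UTR of 17.3% of tested genes and, among pore genes, of NUP188, which fell, TPR, which rose, and NUP43, which did not pass. Over all tested genes with a sequence, the median log2 fold change was -0.10 with ATTCCAC in the 3′UTR and 0.02 without it. For TTCCACA in the 3′UTR it was -0.08 and 0.03. In the coding sequence the medians were -0.08 and 0.02 for ATTCCAC, and -0.06 and 0.02 for TTCCACA. Both strings were taken from earlier work on these data, and the cause of these differences was not tested. A match is a description of letters and not of a site in use.

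The longest identity between a hairpin target and a pore transcript was in NUP35, where 12 bases of the second target (bases 4 to 15) occur in shorter annotated transcripts, outside the longest coding sequence and 3′UTR of the gene.
NUP35, chr2:183118712-183118723, plus strand: cagaagaGACCAAGACAAGttttaga
NUP35 was the pore gene that rose most. In NUP98, 11 bases of the first target (bases 1 to 11) occur in the coding sequence, and NUP98 did not pass the test.

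The genes on either side of AAAS on chromosome 12 did not share its fall in size. MYG1, which lies on the opposite strand with its end 279 bases from the 3′ end of AAAS, was at 21.7 ± 0.739 FPKM in sh-NC and 25.2 ± 2.41 FPKM in sh-TRAF2 (SD, n = 3 each), a log2 fold change of 0.21 (limma adjusted p = 0.0367). Beyond MYG1, PFDN5 (0.26, limma adjusted p = 0.0149) and ESPL1 (0.24, limma adjusted p = 0.0182) rose. On the other side SP1 (-0.32, limma adjusted p = 0.00188) and PCBP2 (-0.23, limma adjusted p = 0.00085) fell, and PRR13 (-0.11, limma adjusted p = 0.051) did not pass. The MYG1 call was lost in 7 of 15 alternative settings.

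The partners of the pore in transport were read from lists of 4 groups, each of which held genes that rose and genes that fell. Among 26 tested transport receptors, the importins and exportins that carry cargo through the channel, 10 rose and 6 fell, with a median log2 fold change of 0.02. The 3 with the smallest adjusted p were XPO7, an exportin that went from 30.3 ± 1.17 to 19.9 ± 0.204 FPKM (log2 fold change -0.60, limma adjusted p = 2.80e-05), KPNA6, an importin alpha (-0.42, limma adjusted p = 0.000131), and IPO11 (0.59, limma adjusted p = 0.000159). Leaving out replicate 2 or replicate 3 of sh-TRAF2 brought the count of receptors that rose to 6. Of the 26, 61.5% passed in either direction, beside 44.6% of all genes.

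In the Ran cycle, which gives transport its direction, 3 of 10 genes rose and 1 fell, 40% in all and near the 44.6% of all genes. RCC1, the chromatin-bound exchange factor that loads Ran with GTP, was at 19.4, 19.4 and 18.7 FPKM in sh-NC and at 35.4, 37.0 and 38.6 FPKM in sh-TRAF2. Every sh-TRAF2 sample lay far above the sh-NC range, with a log2 fold change of 0.95 (limma adjusted p = 4.18e-06). RANBP1, a Ran-binding cofactor of GTP hydrolysis (0.34, limma adjusted p = 0.000147), and RANGRF, a Ran-binding protein (0.39, limma adjusted p = 0.000384), rose as well. The gene that fell was the SUMO protease SENP1 (-0.30), named here, like the few members that moved the smaller way in the next 2 lists, after its value was seen.

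Among 21 tested genes of mRNA export, 10 rose and 3 fell, with a median log2 fold change of 0.15 beside 0.02 over all genes. In all 61.9% passed, beside 44.6% of all genes (23.7% higher and 20.9% lower). THOC1, a subunit of the THO complex that couples transcription to export, went from 4.87 ± 0.312 to 9.16 ± 0.448 FPKM (SD, n = 3 each; log2 fold change 0.90, limma adjusted p = 3.40e-05). The export adaptor ALYREF (0.40, limma adjusted p = 0.000191) and the helicase DDX39A (0.29, limma adjusted p = 0.000859) rose too. The 3 that fell were THOC6 (-0.42), NXT2 (-0.33) and POLDIP3 (-0.14).

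Of 22 tested genes of the nuclear envelope and lamina, 4 rose and 7 fell, with a median of 0.00, and the 50% that passed were near the 44.6% of all genes. TOR1AIP1, an inner nuclear membrane protein that activates torsins, was at 14.7, 13.6 and 14.2 FPKM in sh-NC and at 6.45, 6.54 and 7.58 FPKM in sh-TRAF2. It was lower in every sh-TRAF2 sample, with a log2 fold change of -1.04 (limma adjusted p = 2.26e-05). TOR1A, the torsin ATPase of the nuclear envelope and endoplasmic reticulum, fell by 0.66 on the log2 scale (limma adjusted p = 3.55e-05). CHMP7, which recruits the ESCRT machinery that seals the envelope after mitosis, rose by 0.77 (limma adjusted p = 2.80e-05). The other 3 that rose were LMNA, which encodes lamins A and C (0.39), TMEM201 (0.26) and BANF1 (0.21).

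**Figure D5:**
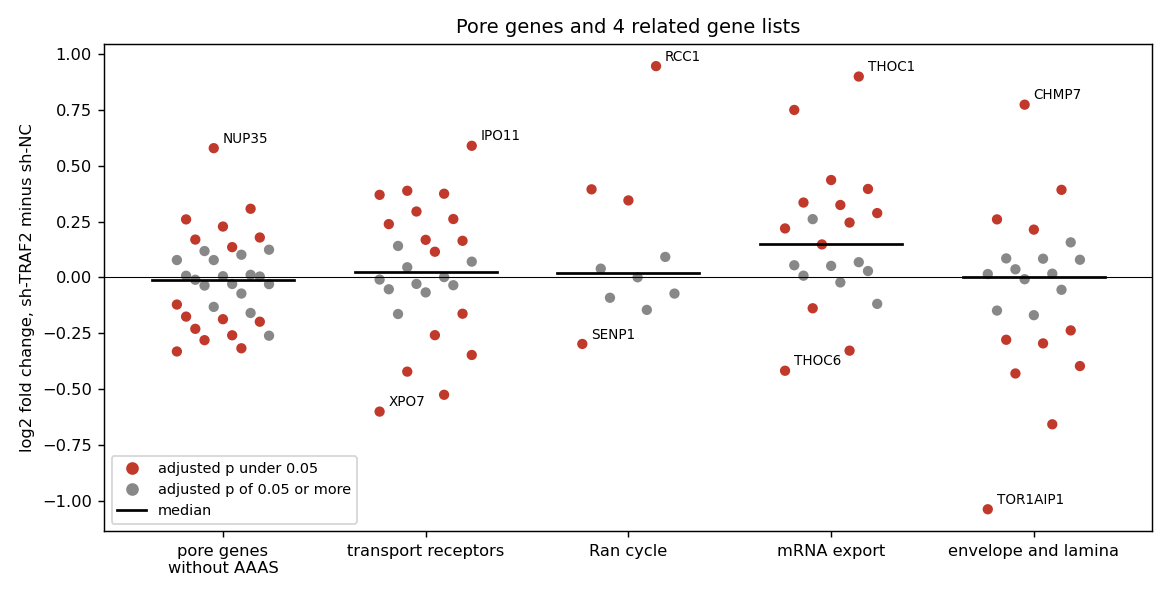
Log2 fold changes (vertical axis, sh-TRAF2 minus sh-NC) of the 33 pore genes other than AAAS and of 4 related lists, 1 point per gene. Red points passed an adjusted p of 0.05, grey points did not, and black lines are medians. Each list holds genes on both sides of 0. RCC1 (0.95), THOC1 (0.90), TOR1AIP1 (-1.04) and CHMP7 (0.77) are among several list genes that lie outside the range of these pore genes.

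Of 5 genes whose products are reported to bind ALADIN, 3 fell and none rose, beside 20.9% lower and 23.7% higher among all genes. They were NDC1, FTH1, the ferritin heavy chain (4359 ± 136.2 FPKM in sh-NC and 3272 ± 92.9 in sh-TRAF2, log2 fold change -0.41, limma adjusted p = 4.12e-05), and PGRMC2, a heme-binding membrane protein (-0.15, limma adjusted p = 0.0424). Under quantile normalization the FTH1 difference shrank to -0.06 (limma adjusted p = 0.0882), and the PGRMC2 call was lost in 7 of 15 alternative settings. The mitotic kinase AURKA (0.03) and PGRMC1 (0.09) did not pass.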

How the data were processed

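Total RNA of 6 U251 samples was sequenced, 3 sh-NC and 3 sh-TRAF2, described in the design text as biological replicates. The authors deposited FPKM per gene. The submitters' processing notes name HISAT2, HTSeq, R 3.2.0 and DESeq2. The genome build, annotation and use of strand are not given in the sources used here. The deposited table's annotation columns served only for gene numbers and terms. Whole reads were recovered from the steps of the FPKM values. They gave the depths, which bear on counting error only, and were the input of a limma-voom fit among the alternatives below.

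Genes with a mean of at least 0.5 FPKM (11870 of 23002) were tested on log2(FPKM + 0.1) with limma 3.58.1 in R 4.3.3 (trend on mean level, Benjamini-Hochberg over all genes tested, threshold 0.05), both groups in the fit and no covariate. A fold change on this scale understates that of low genes. The p-values set the difference between the groups against the spread between samples within them. The samples came from a control line and a knockdown line, so TRAF2 knockdown and any other difference between the lines cannot be told apart. The script was tested on simulated data. Genes were matched by NCBI Gene number to GENCODE release 29 (GRCh38), whose 3′UTR and coding sequences were searched (91.4% of tested genes matched, and all 35 pore genes). Proteins were not analysed here.

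Per-sample values were given for AAAS, and for the 5 largest rises and 5 largest falls among the other pore genes past the threshold, NDC1 included. In each list the 3 genes with the smallest adjusted p were named, and beside AAAS its neighbours. Pore genes and lists were chosen with earlier results of these data known. In all, 15 alternatives were run: other pseudocounts, filters, scalings and models, a replicate block, and each sample left out.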

Additional observations from a re-analysis of the deposited data

How the results depend on the processing

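The AAAS difference, not tested because it drew attention to the group, kept its direction in all 15 alternatives. It moved between -0.90 and -0.79 on the log2 scale. NDC1, NUP35, NUP42, NUP93, NUP107, NUP188, NUP58, GLE1, SEC13 and TPR passed the threshold in all 15, while NUP50 did in 13, NUP54 in 12, NUP153 and NUP210 in 10, NUP62 in 9 and NUP205 in 7. Of the genes that did not pass, NUP85 passed in 4, and NUP98, RAE1 and SEH1L in 1 each. With 1 sample left out, the pore genes other than AAAS that fell numbered 5 (without sh-NC replicate 1) to 9, the transport receptors that rose 6 to 8, and the Ran cycle genes that fell 1 to 2. The Ran cycle count was 4 under quantile normalization. The cause of these shifts was not tested. The labels do not say whether replicate numbers pair the samples. The deviations of same-numbered samples correlated at -0.0812, 0.0722 and 0.0728, so little shared deviation was seen. With the replicate number as a block, 7 of the other pore genes were higher and 10 lower, 2912 and 2539 of all genes, and 2 Ran cycle genes lower. Among the genes named, the sign changed in 7 pore genes close to 0, none of which had passed the test. Rescaling to TPM gave -0.0019 for AHCTF1, -0.0061 for NUP133, -0.0082 for NUP43 and -0.0095 for POM121, and quantile normalization gave -0.0067 for NUP43 and -0.00099 for POM121. With 1 sample left out, the log2 fold changes ran from -0.0097 to 0.0424 for AHCTF1, -0.0549 to 0.0416 for NUP133, -0.0683 to 0.0168 for NUP155, -0.0800 to 0.0142 for NUP37, -0.0167 to 0.0371 for NUP43, -0.0459 to 0.0229 for NUP88 and -0.0411 to 0.0286 for POM121. In the other 248 group-level comparisons, some of them printed above, counts stayed within 1.5 times the main count. Fold changes there kept their sign and moved by less than the spread within groups. Reads were few for NUP210L (0 to 3 per sample) and NUP62CL (31 to 57).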

Other observations

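The deposited annotation gives a nuclear pore term to 82 genes, of which 48 are not among the 35 followed above and 39 of those were tested. Of the 39, 14 were higher and 9 lower in sh-TRAF2 (limma, adjusted p of 0.05), beside 23.7% higher and 20.9% lower among all genes, with a median log2 fold change of 0.04, and 21 of the 48 are also in the lists of transport, export or envelope genes. MX2, an interferon-induced GTPase that binds the pore, was picked from these after its values were seen. It stood at 2.23, 1.23 and 2.81 FPKM in the sh-NC samples and at 2.87, 4.87 and 6.55 FPKM in the sh-TRAF2 samples, a wide spread in both groups with no overlap (log2 fold change 1.15, standard error 0.336, limma adjusted p = 0.0237).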
